A study of Homo sapiens with 8 samples.

Results

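The genes described here encode the DNA replication machinery, from the proteins that mark origins to the enzymes that supply deoxynucleotides. They were taken from a fixed list of 46 gene symbols, matched to the Ensembl identifiers of the count table after the version suffix was removed, and all 46 were found among its 63568 genes. The study compared MIAPaCa-2, a human pancreatic cancer cell line, carrying a control short hairpin RNA (shRNA-Control) with MIAPaCa-2 carrying a short hairpin RNA against METTL3, the catalytic subunit of the enzyme that writes N6-methyladenosine (m6A) on mRNA. From each line, total RNA was cut into short fragments, a small part was kept as input, and the rest was pulled down with an anti-m6A antibody (MeRIP-seq). There were 8 samples in 4 groups, and each group was 1 library read on 2 lanes. The METTL3 knockdown (METTL3-KD) line was a gift to the study, and the labels name no separate cultures or clones.

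Replication starts where the origin recognition complex binds DNA and, with CDC6 and CDT1, loads the ring-shaped MCM2-7 helicase. CDC45 and GINS then join MCM2-7 to form the active helicase, DNA polymerase alpha-primase lays down primers, and polymerases delta and epsilon extend them while tethered to the sliding clamp PCNA, which the RFC complex opens and closes. Many of these genes are transcribed as cells enter S phase, under E2F transcription factors, and their mRNAs are abundant in dividing cancer cells.

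A shared promoter sequence is shown first, because it is a feature of these genes that the list did not use. The set of RefSeq promoter windows used here (GRCh38.p14) held an entry for 40 of the 46 members. The windows ran from 250 bases before to 50 after the transcription start. They were searched on both strands for TTTCCCGC and TTTGGCGC (2 forms of the E2F element), and each match was counted whether or not it overlapped another. Of these 40 members, 16 (40%) held at least 1 match, against 462 of 15053 protein-coding promoters (3.07%), with a median GC content of 65.3% in the members and 63% in all. A match is a run of letters and was not tested as a binding site. The windows of 6 members are given below on the gene's strand, with the match, or its reverse complement, in capitals.
CDC6 (chr17:40287875-40287904): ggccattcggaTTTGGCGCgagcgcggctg
MCM3 (chr6:52284898-52284927): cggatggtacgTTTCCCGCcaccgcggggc
MCM7 (chr7:100101566-100101595): cagctcggaccGCGGGAAAcccggcgcctg
GINS2 (chr16:85688967-85688996): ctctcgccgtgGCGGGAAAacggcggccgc
PCNA (chr20:5126663-5126692): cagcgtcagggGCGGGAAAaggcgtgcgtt
TYMS (chr18:657603-657632): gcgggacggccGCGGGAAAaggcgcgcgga

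Relative to the transcription start, the matches began at -174 in MCM3, -187 in MCM7, -59 in PCNA, -39 in TYMS, -31 in GINS2 and 7 in CDC6. The other members with a match were CDT1, GINS1, GINS3, LIG1, MCM6, ORC3, POLA1, POLE, POLE2 and RFC3. Of the 16 members with a match, 14 had molecules in the METTL3-KD input and 7 in the control input, and of the 24 without, 20 and 5 did, and these shares were not tested.

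The input libraries differed in how many distinct RNA molecules their reads came from, and every value below depends on that. The counted reads numbered 1609215 and 1628753 on the lanes of the control input and 906240 and 926765 on those of the METTL3-KD input. These totals exceed the 2880835 and 1337448 reads that the peak caller took from the 2 inputs, so some reads may be counted more than once, which was not tested. Reads per gene piled up at 2 values, 511 and 1036 reads in the control input and 19.4 and 35.4 in the METTL3-KD input. The lower value (the lower mode) is taken here as the reads from 1 molecule, which gave 6338 and 94554 molecules. The upper mode held more genes in both libraries, and if that is 1 molecule the totals are 3125 and 51735. At the lower mode, 6.19% of genes with 10 or more control reads had too few to round to 1 molecule. In the METTL3-KD input it was 0%. The peak caller, which kept 1 read for each position, kept 9291 positions in the control input and 52141 in the METTL3-KD input. Intervals below use the lower mode, are the narrower of the choices and cover counting error only. With 1 library for each condition no difference has a replicate check, and in bulk RNA a change in the share of cells that express a gene and in RNA per cell cannot be told apart. METTL3 itself had 0 reads in all 4 input lanes, which at a floor of 3 molecules did not allow the knockdown to be checked. Reads of 3 of 5 epithelial markers were present in each input, but KRT19 had a single control read, so 2 had control molecules. VIM was present in both, and acinar and endocrine markers had none. Of 2 endothelial markers, 1 was found among the counted genes, and it had no reads. Of 3 immune markers, 0 had reads in the control input and 1 in the METTL3-KD input, and of 4 fibroblast markers 1 had reads in each.

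In the control input, 16 of 46 members (34.8%) had at least 1 read, against 10.3% of 19488 protein-coding genes. In the METTL3-KD input 40 members (87%) did, against 39.6%. POLD2 had a single control read, and ORC1 a single METTL3-KD read, so that in molecules the numbers were 15 (32.6%) and 39 (84.8%), against 8.42% and 37.4% of protein-coding genes. Both shares were above those of protein-coding genes, which is a description with no test. Molecules were present in both inputs for 14 members, in the METTL3-KD input alone for 25 and in the control input alone for 1. The remaining 6, ORC3, ORC4, ORC5, RPA3, PRIM1 and POLE2, had no read in any lane. Absence from the control input was no trait of the members. Of the 40 members with at least 10 reads over both inputs, 60% had no control read, against 74.3% of 9931 such genes.

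**Figure D1:**
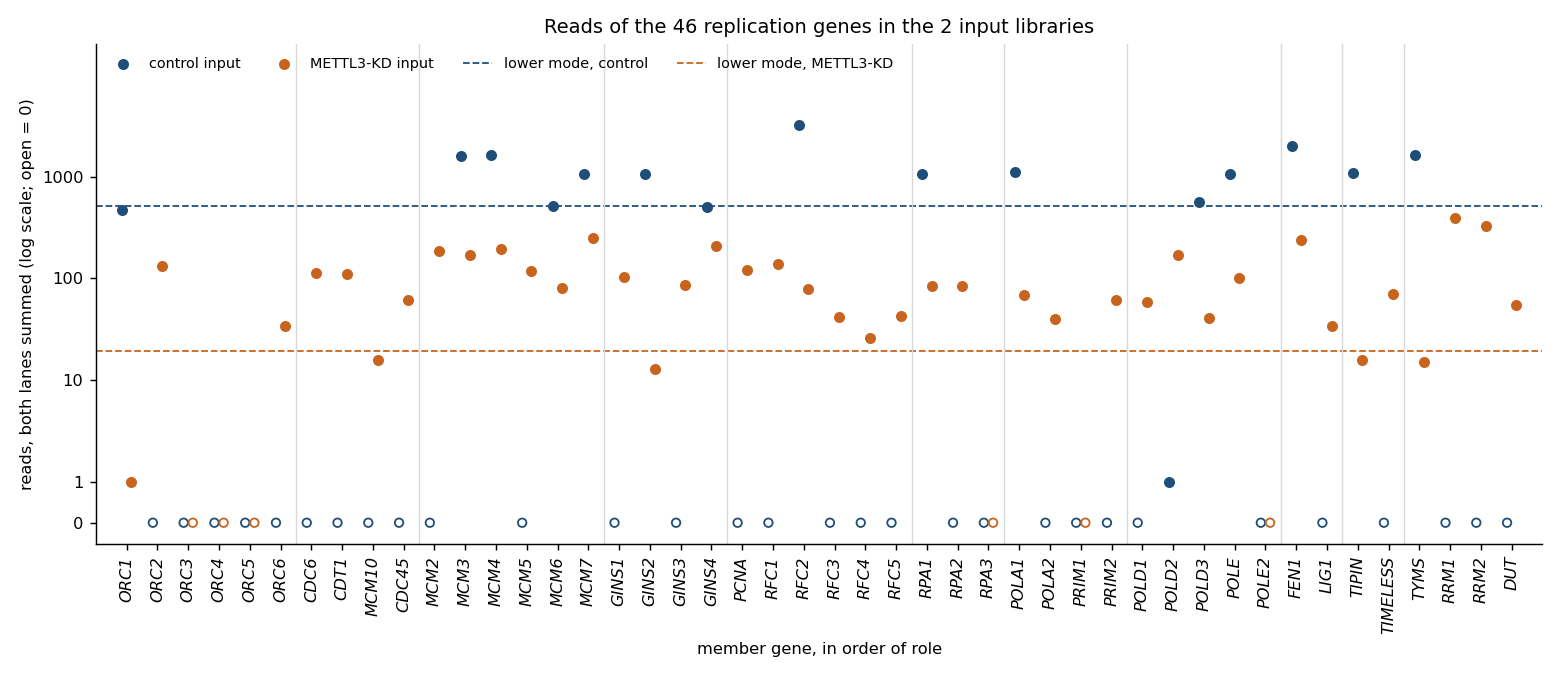
Reads of each member, both lanes summed, on a log axis, in the control input (blue) and the METTL3-KD input (orange), with open circles at 0 and dashed lines at the lower mode of each library. Control points lie at 0 or from 473 upwards except POLD2 at 1, while METTL3-KD points spread from 1 to 394 over 40 members.

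The control reads of the members fell into steps. ORC1, MCM6, GINS4 and POLD3 had between 473 and 558 reads, close to 1 molecule. MCM7, GINS2, RPA1, POLA1, POLE and TIPIN had between 1056 and 1105, close to 2. MCM3, MCM4 and TYMS had between 1607 and 1611, close to 3, FEN1 had 1985 and RFC2 had 3181. No member lay between these steps, so the 15 members with control molecules rested on 36.2 molecules in all. Lanes gave the same picture: of the members with 10 or more reads, 1 (POLD3, 253 and 305 reads) differed between the control lanes at an exact binomial p under 0.05, and 0 differed between the METTL3-KD lanes.

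Together the members took 18492 reads of the control input, a share of 0.571% (interval 0.398% to 0.786%), and 4184 reads or 216 molecules of the METTL3-KD input, a share of 0.228% (0.199% to 0.261%). Whether the group as a whole was lower depended on the scaling. By total counts, the log2 ratio of METTL3-KD over control was -1.32 (-1.83 to -0.76). After TMM scaling it was 0.10 (-0.40 to 0.66). TMM uses a weighted trimmed mean of the log ratios of genes with reads in both inputs. Of the 9931 genes with at least 10 reads over both, 74.3% had no control read and did not enter it. Which scale is closer to the RNA levels was not tested. Going from TMM to total counts moves the log2 ratio of a group, or of a member with molecules in both inputs, by -1.43. The ratios used to count low and high members include a small added count and moved by less where an input had few or no reads. Ratios below are on the TMM scale unless stated.

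**Figure D2:**
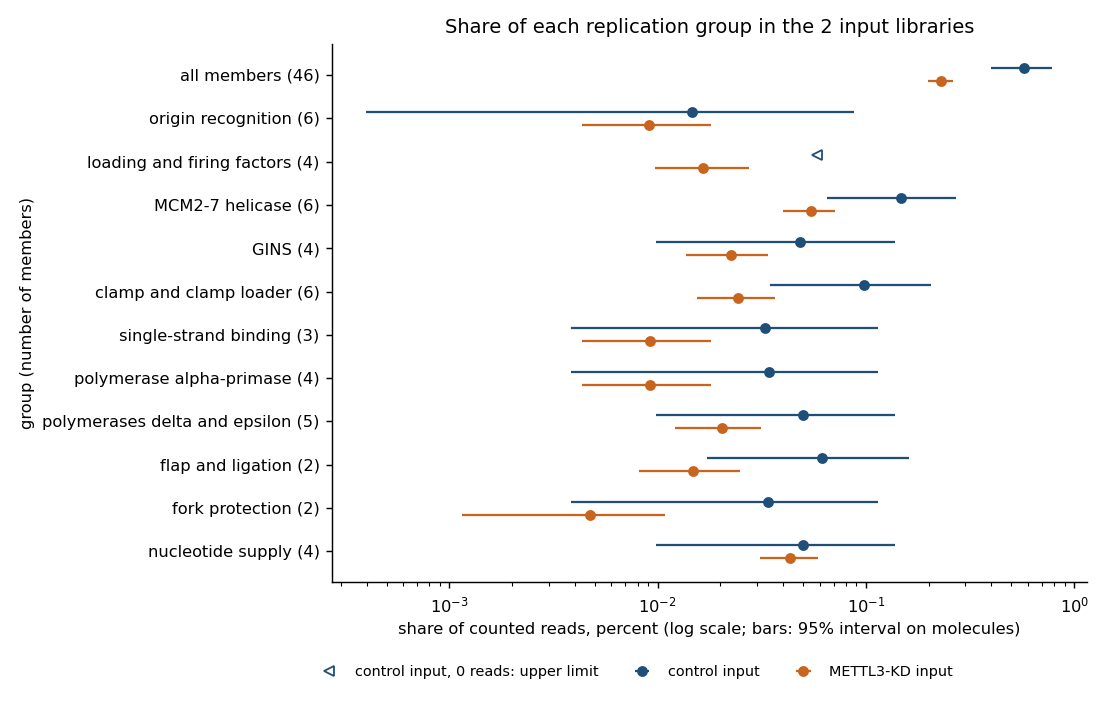
Share of counted reads of all members and of each role group, in percent on a log axis, in the control input (blue) and the METTL3-KD input (orange), with exact binomial intervals on molecules at the 95% level. The control point lies to the right of the METTL3-KD point in each group with control reads, and the 2 intervals overlap in each of those groups but not for the 46 members together.

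Of the 40 members with at least 10 reads over both inputs, 5 (12.5%) had a log2 ratio under -2, against 7.2% of 9931 genes, and 25 (62.5%) had one above 2, against 79.2%. The low ones were ORC1, GINS2, RFC2, TIPIN and TYMS. Of the 25 high ones, 24 had 0 control reads and POLD2 had 1, so their ratio is set by the prior count of 2 and no fold is given for them. Asking also for an exact binomial p under 0.01 on molecules between the libraries left 1 low member (2.5%), RFC2, against 0.322% of genes, and 0 high members, against 0.775%. With the upper mode as the molecule, 0 members passed in either direction. Among all genes with molecules in both inputs (1764), the median ratio was -0.67 and 65.9% lay under 0. Among the 14 members with molecules in both it was -1.27, and 12 lay under 0. A gene enters either set only with a control molecule, which equals 5.55 METTL3-KD molecules on this scale and 14.9 by total counts. That filter itself favours ratios under 0, and the 2 medians were not tested against each other.

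**Figure D3:**
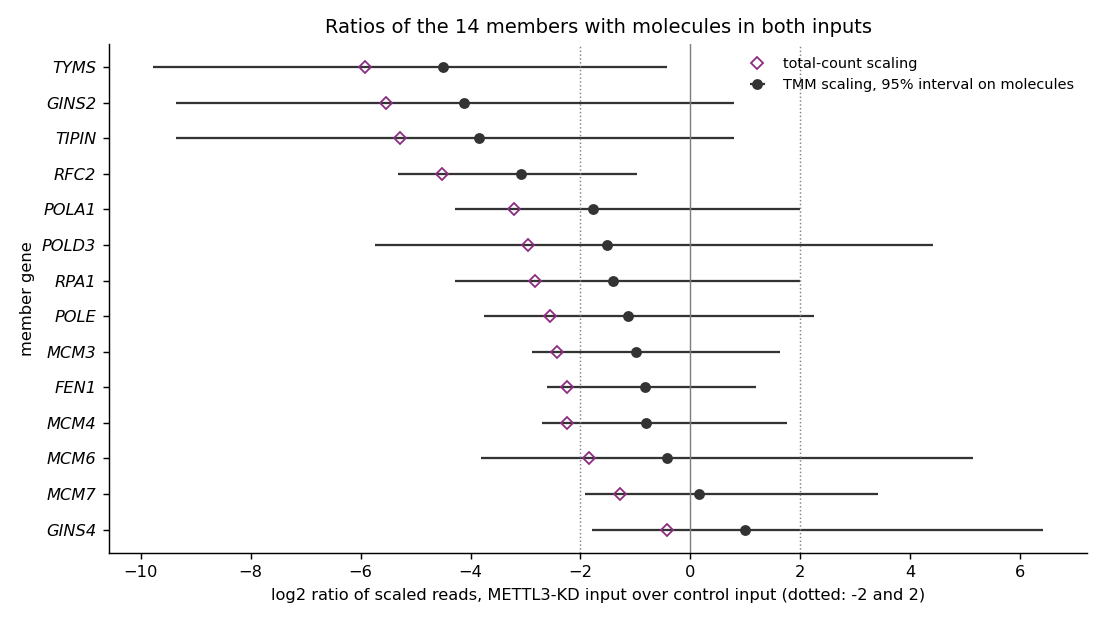
Log2 ratio of scaled reads, METTL3-KD input over control input, of the 14 members with molecules in both, with filled circles and exact intervals at the 95% level on molecules after TMM scaling and open diamonds for total-count scaling. Only RFC2 and TYMS have intervals wholly under 0 on the TMM scale, and GINS4 and MCM7 have ratios above 0 on it and under 0 by total counts.

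In the METTL3-KD input, the origin recognition complex had the smallest share of members detected of the 11 groups. ORC1, an ATPase subunit, had 238 and 235 reads on the control lanes and 1 and 0 on the METTL3-KD lanes, which is 1 molecule against none. With no molecule in 1 library, no fold is given although its ratio was under -2. ORC2, a core subunit, had no control read but 64 and 68 on the METTL3-KD lanes, or 6.81 molecules. ORC6 had no control read against 16 and 18 in the METTL3-KD input. Only ORC2 and ORC6 of 6 subunits thus had molecules in the METTL3-KD input. The group took 0.0146% of control reads (interval 4e-04% to 0.0879%) and 0.00911% of METTL3-KD reads (0.00435% to 0.0181%).

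The factors that load and fire the helicase had no control read. CDC6 and CDT1, which load MCM2-7, had 112 and 111 METTL3-KD reads, CDC45, part of the active helicase, had 62, and MCM10, which helps to activate it, had 16. These 4 genes took 0.0164% of METTL3-KD reads (0.00967% to 0.0275%). With 0 control molecules the control share could be up to 0.0582%, which holds the METTL3-KD interval, so their absence from the control input was not a detectable difference at this depth.

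The MCM2-7 helicase, the ring that unwinds DNA, was the only complex of more than 3 subunits with most subunits detected in the control input. MCM3 had 771 and 836 reads on the control lanes and 82 and 88 on the METTL3-KD lanes, with a log2 ratio of -0.99 (-2.89 to 1.63). MCM4 had 812 and 799 against 105 and 88, with a ratio of -0.81 (-2.69 to 1.76). MCM6 had 236 and 274 against 42 and 38, with a ratio of -0.42 (-3.81 to 5.15). All 3 intervals include 0 and are several log2 units wide. MCM7 had 516 and 551 against 120 and 129, with a ratio of 0.15 (-1.92 to 3.42). MCM2 had no control read and 93 and 91 METTL3-KD reads, and MCM5 none and 54 and 64. In molecules MCM2 had none against 9.49 and MCM5 none against 6.09, numbers at which, on the TMM scale, under 2 control molecules are expected, since 1 control molecule equals 5.55 METTL3-KD molecules.

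All 6 MCM2-7 subunits had molecules in the METTL3-KD input, and per length of canonical transcript they ranged from 1.1 molecules per kb for MCM6 to 5.21 for MCM7. The MCM7 interval (2.81 to 9.01) overlapped those of MCM2, MCM3, MCM4 and MCM5 and lay just above that of MCM6 (0.29 to 2.73). The group had a log2 ratio of -0.02 (-1.01 to 1.24), and by total counts of -1.45 (-2.43 to -0.19). With the upper mode as the molecule, the interval by total counts reached 0.17.

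Of the GINS complex, the helicase partner, GINS2 had 540 and 531 reads on the control lanes and 5 and 8 on the METTL3-KD lanes. That is 2 molecules against 1, with a ratio of -4.12 (-9.35 to 0.79). GINS4 had 247 and 252 against 97 and 113, with a ratio of 0.9995 (-1.79 to 6.42), the highest of the 14, and 33.4% of its exon bases are shared with other annotated genes. GINS1 and GINS3 had no control read, and 104 and 87 METTL3-KD reads over both lanes. The subunits of this 4-protein complex thus held the highest ratio of the 14 and one close to the lowest, while the intervals of the measured ratios overlapped.

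Of the sliding clamp and its loader, RFC2, a small loader subunit, had the most reads of any member in the control input, 1573 and 1608, and 36 and 43 on the METTL3-KD lanes. In molecules this was 6.23 against 4.07. Its ratio was -3.08 (-5.33 to -0.98), with an exact binomial p of 0.00153 between the libraries. With the upper mode as the molecule, the p was 0.0219. RFC2 is on chromosome 7 (73645829 to 73668788, hg19) and shares no exon base with another gene in the table. The other loader subunits, RFC1, RFC3, RFC4 and RFC5, had 0 control reads and between 26 and 137 METTL3-KD reads. PCNA, the clamp itself and a common marker of proliferating cells, had 0 control reads on both lanes and 50 and 70 METTL3-KD reads. The 6 genes together had a ratio of -0.58 (-1.87 to 1.05), and by total counts of -2.01 (-3.30 to -0.37). With the upper mode as the molecule, the interval by total counts reached 0.52.

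RPA1, the large subunit of the single-strand binding protein, had 525 and 531 control reads and 38 and 46 METTL3-KD reads, with a ratio of -1.40 (-4.28 to 1.995). RPA2 had 0 and 85. POLA1, the catalytic subunit of the primer-making polymerase, had 571 and 534 against 31 and 37, with a ratio of -1.77 (-4.28 to 1.995). POLA2 had 0 control reads and 40 METTL3-KD reads, and PRIM2, the large primase subunit, 0 and 61. In each of these complexes the 1 subunit with control reads was the largest by transcript length, and every interval included 0.

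POLE, the catalytic subunit of polymerase epsilon, the leading-strand enzyme, had 528 and 534 against 50 and 52 reads, with a ratio of -1.13 (-3.76 to 2.24). POLD3, an accessory subunit of polymerase delta, had 253 and 305 against 23 and 18, with a ratio of -1.52 (-5.74 to 4.41). POLD1, the catalytic subunit of polymerase delta, had 0 against 59. POLD2 had 1 against 171 reads, where the single control read is far under 1 molecule. In the control input the catalytic subunit of polymerase epsilon thus rested on 2 molecules and that of polymerase delta on none.

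FEN1, which removes the flap ahead of a finished Okazaki fragment, had 983 and 1002 control reads and 113 and 124 METTL3-KD reads, with a ratio of -0.82 (-2.61 to 1.2). LIG1, the ligase that seals the nick, had 0 and 34. TIPIN, which steadies stalled forks, had 545 and 550 against 8 and 8, or 2 molecules against 1, with a ratio of -3.85 (-9.35 to 0.79). Its partner TIMELESS had 0 against 71. The summed ratio of the pair was -1.41 (-4.28 to 1.995).

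The nucleotide supply genes held the most abundant and one of the least abundant members of the METTL3-KD input. RRM1, the large subunit of ribonucleotide reductase, had no control read but 199 and 195 on the METTL3-KD lanes, and RRM2, its small subunit, none but 170 and 158. On molecules at the lower mode, the exact lower limits of their log2 ratios were -0.17 and -0.43, under 0, and the exact binomial p between the libraries was 0.0604 and 0.0943. With the upper mode as the molecule the p was 0.382 and 0.623. For the other 23 members found in the METTL3-KD input alone, the lower limit was -1.49 or less, so for all 25 a higher level could not be told from an equal one. DUT, which clears dUTP, had 0 and 55.

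TYMS, thymidylate synthase, had 800 and 811 control reads and 5 and 10 METTL3-KD reads, or 3 molecules against 1. Its ratio was -4.50 (-9.77 to -0.42), the lowest of the 14, with an exact binomial p of 0.0126 between the libraries, short of the threshold of 0.01. Of its exon bases, 66.5% are shared with ENOSF1 or TYMSOS, which run through it, so part of these reads may be theirs. By total counts, the intervals of GINS2, FEN1 and TIPIN also lay wholly under 0, beside those of RFC2 and TYMS, and no member's interval lay wholly above 0 on either scale.

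In the METTL3-KD input, the library with more molecules, members could be ordered by level per length. RRM1 was highest, with 6.47 molecules per kb (Poisson interval 3.89 to 9.83), followed by FEN1 at 6.06 (3.08 to 10.4), POLD2 at 5.48 (2.56 to 10.6), MCM7 at 5.21, RRM2 at 5.19 and PCNA at 4.85. Then came GINS4 at 2.87, MCM3 at 2.86, RPA2 at 2.77 and MCM2 at 2.76. The lowest was MCM10 at 0.181. No neighbours in the order of 39 had intervals that did not overlap, but the intervals of 20 members lay wholly under that of RRM1, MCM5, ORC2, POLE and LIG1 among them. The median of the 39 was 1.45 molecules per kb, against 0.876 for 7248 protein-coding genes with molecules.

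**Figure D4:**
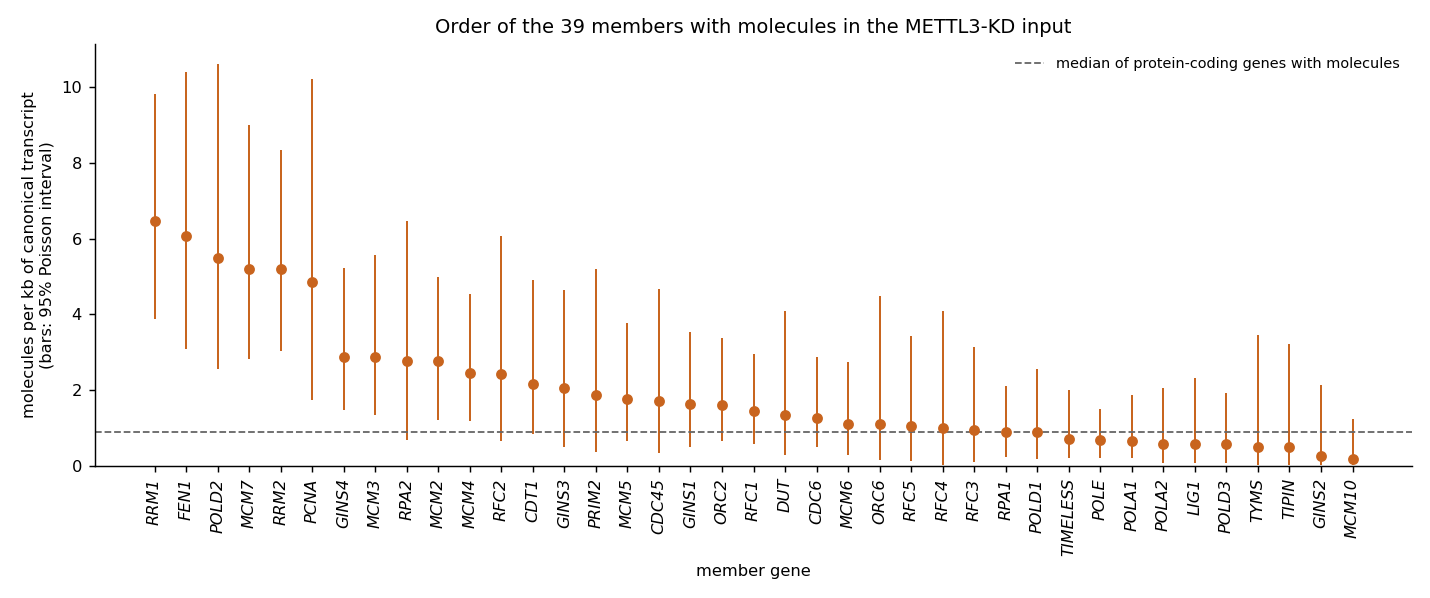
Molecules per kb of canonical transcript in the METTL3-KD input for the 39 members with molecules, with Poisson intervals at the 95% level and a dashed line at the median of protein-coding genes. RRM1, FEN1, POLD2, MCM7, RRM2 and PCNA stand between 4.85 and 6.47, and 29 of 39 points lie above the line.

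The peak lists gave m6A peaks of the antibody libraries over the inputs. Of the control list, 7 peaks with q under 0.01 overlapped exons of 6 members (13% of 46), against 7.18% of protein-coding genes. Among the genes with molecules in the METTL3-KD input it was 6 of 39 (15.4%) against 15.8%, so members had control peaks about as often as other detected genes. In the METTL3-KD list no member had a peak in an exon, against 2.21% of protein-coding genes and 3.77% of those with METTL3-KD molecules. No member had one in an intron either. Since the METTL3-KD antibody library held 4508 positions against 7920 in the control one, and 830 peaks against 2298, the 0 members and the size of that library cannot be told apart.

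The sequences under the peaks of 3 subunits of the MCM2-7 ring are shown, among them the strongest peak in any member. They were read from GRCh37 on the transcript strand, with each DRACH motif, the context in which METTL3 methylates adenosine, in capitals. For MCM2, whose peak is in the 3′UTR, the 30 bases around the motif nearest the summit are given. The MCM3 and MCM5 sequences cover the whole peak.
MCM2 (chr3:127340753-127340782, plus strand): ctgcacctggcaTGACTgtttgtttctcca
MCM3 (chr6:52138543-52138649, minus strand): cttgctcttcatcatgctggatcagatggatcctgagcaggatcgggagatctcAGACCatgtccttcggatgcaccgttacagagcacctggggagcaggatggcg
MCM5 (chr22:35815907-35816006, plus strand): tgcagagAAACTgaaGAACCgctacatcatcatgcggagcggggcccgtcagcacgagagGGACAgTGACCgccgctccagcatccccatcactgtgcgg

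MCM2 had the strongest peak, at chr3:127340683-127340869, with a pileup of 4 fragments, a fold enrichment of 5 and a −log10 q of 13.4. Its summit lay at nucleotide 2931 of the 3434-nucleotide canonical transcript, in the last of 16 exons and 3′ of the coding sequence, which ends at 2768. Another annotated gene has an exon under the same peak. The peaks of MCM3 and ORC2 had a pileup of 3, a fold enrichment of 4 and a −log10 q of 9.92. MCM3 had 1607 control input reads and ORC2 had 0, so the fold and q did not follow the input reads of the gene. The MCM3 summit lay in coding sequence, in exon 10 of 17, and 3 bases from the A of its AGACC.

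The ORC2 peak had its summit in an intron of the canonical transcript and in an exon of another annotated transcript of the gene. Of 5 evenly spaced stretches of 20 bases from it, the median stretch had 74 exact copies in GRCh37 and the commonest had 10140, while those of the other peaks had 1 each. Reads of that peak may therefore come from elsewhere in the genome, which was not tested.

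The other 4 peaks, in POLE, RFC1 and MCM5 (with 2), had a pileup of 1, a fold enrichment of 2 and a −log10 q of 2.93, so each was a single fragment. Of all control peaks, 52% had a pileup of 1 and 16.9% one of 3 or more, against 3 of 7 (42.9%) in the members. The POLE summit lay in exon 26 of 49 (chr12:133235974-133236073) and that of RFC1 in exon 16 of 25 (chr4:39304663-39304762), both in coding sequence. The first MCM5 peak lay in exon 14 of 17, and the second, at chr22:35817222-35817321, had its summit in an intron and reached into the next exon.

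**Figure D5:**
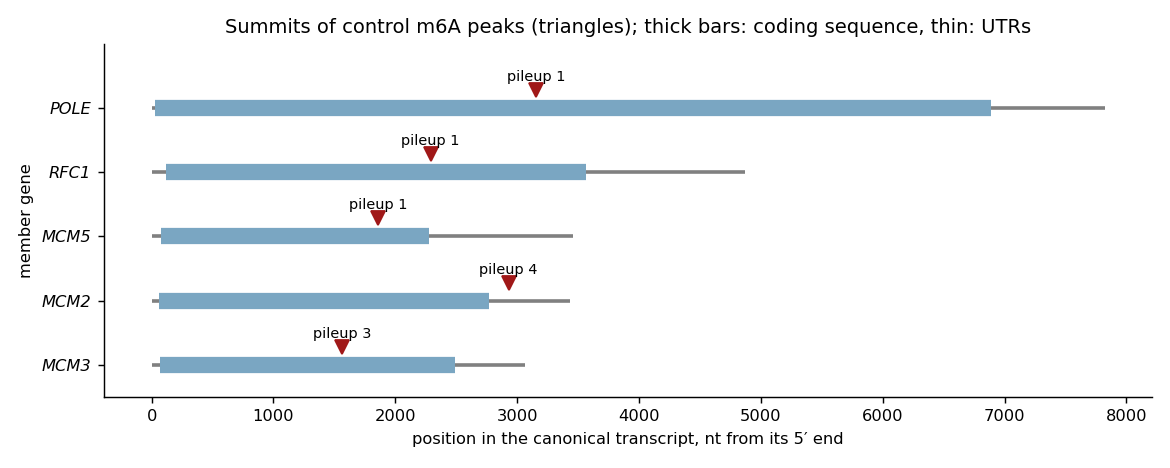
Position of the 5 control peak summits that lie in an exon of a member's canonical transcript, in nucleotides from its 5′ end, with thick bars for coding sequence, thin bars for UTRs and the pileup beside each triangle. The summit of MCM2 is the 1 in a 3′UTR, and those of MCM3, MCM5, RFC1 and POLE are in coding sequence.

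Within 50 bases of the summit, all 7 peaks held a DRACH motif. So did 84.6% of 1327 control peaks with a summit in exons of protein-coding genes, so the motif did not set the members apart. The second MCM5 peak had its summit in an intron, unlike the 1327. How often such a window holds the motif by chance was not tested. None of the 7 held GGACT, the commonest form, which 7.61% of the 1327 held. Of the 6 members with a control peak, MCM2, MCM5, ORC2 and RFC1 had 0 reads in the control input, and MCM3 and POLE had 1607 and 1062. This was common in the series, where 79.8% of the 1399 protein-coding genes with a control exon peak had no control input read. The m6A level of these transcripts relative to their abundance was thus not measurable in the control cells for 4 of the 6. For MCM3 and POLE it would rest on pileups of 3 and 1 over 3.15 and 2.08 control molecules, too few to give a level.

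Other replication genes are given by counts. Of a list of 42 genes that license, regulate or accompany replication, 41 were in the table. Reads were present for 9 of them in the control input and for 33 in the METTL3-KD input, and 34 had at least 10 reads over both. Of these, 2 (CDC25A and RNASEH2C) had a ratio under -2 and 27 one above 2, where 7.2% and 79.2% of all genes did. No control read was present for 25 of the 34, where 74.3% of all genes with as many reads had none. On molecules, 0 of the 34 passed in either direction. TOP2A, the topoisomerase that untangles replicated DNA, had 2247 and 2329 control reads and 563 and 561 METTL3-KD reads, more than any member in each library, with a ratio of 0.22. DNMT1, the maintenance methyltransferase, had 1646 and 466, with a ratio of 0.43. SUPT16H had 1943 and 199, and SSRP1, its partner in the FACT histone chaperone, had 0 and 237.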

How the data were processed

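The 46 members, the 42 further replication genes and the markers were chosen with earlier results of these data known, and the rule for named genes was to name all members by role and, of the 42, the 3 with the most reads in each input. The authors removed rRNA reads with Bowtie2, aligned reads to hg19 with HISAT2 and counted them with featureCounts. The deposited counts are whole reads per gene and lane, without normalization, and duplicate handling is not given in the sources used here. The library kit keeps strand, and the strand setting of the counting is not given. The authors called peaks with MACS2 on the pooled lanes, antibody library over input. The deposited pileup is a signal of fragments, the deposited fold is a ratio to the local background, and the deposited −log10 q was used at q under 0.01 (the study's methods), while the file headers give a looser threshold. In the 7 member peaks, the fold and q took 1 value for each pileup, so they added nothing to the number of fragments.

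Lanes were summed. Ratios were computed in edgeR 4.0.16 with TMM scaling and a prior count of 2, over genes with at least 10 reads, and were checked on generated data with known changes. The genes changed in that check had more molecules on average than any member had in the control input. The check thus does not cover counts as low as those of the members there. Modes were taken from a kernel density of log2 reads (bandwidth 0.1). Molecule intervals are exact (Clopper-Pearson, Poisson for levels) at the 95% level, and binomial tests are exact and two-sided. No adjusted p is given. DESeq2 1.42.0, other scalings, filters, prior counts and lanes taken as replicates were alternatives. Coordinates and canonical transcripts are from GENCODE 44 mapped to GRCh37, the build of the authors' hg19. Value columns without a sample in the labels numbered 0. Exon peaks needed an overlap of 1 bp. One gene that this rule takes from the 42, and 4 of the 7 peak sequences, are not reported here.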

Additional observations from a re-analysis of the deposited data

How the results depend on the processing

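Members with a log2 ratio under -2 numbered 5 and those above 2 numbered 25, the same 5 genes, and again 25, under DESeq2 size factors, prior counts of 0.5 and 10 and no read filter. By total counts 12 of 40 members lay under -2, and 1260 of 9931 genes (715 in the main comparison). At a log2 threshold of 1, 9 of 40 members and 1084 of 9931 genes were lower. With at least 50 reads, fewer were tested, and 18 of 33 members and 3623 of 5651 genes lay above 2. In the main comparison it was 25 of 40 members and 7863 of 9931 genes. On molecules at the lower mode 1 and 0 members passed (32 and 77 genes), and at the upper mode, chosen after seeing the data, 0 and 0 (0 and 38 genes). Leaving out each lane gave 5 members lower throughout and 24 to 25 higher. When edgeR took the lanes for replicates, the fit with a replicate block by lane number gave 5 and 25 members (656 and 7785 genes), the fit without it 5 and 25, and DESeq2 5 and 25. Lane numbers pair nothing here, since lane differences of the inputs correlated at -0.0117 over 1871 genes, and p-values between lanes measure sequencing spread only. The member share without the 20 top genes of each library was 0.786% in the control input and 0.39% in the METTL3-KD input. Members with a control exon peak numbered 3 at q under 0.001 and 3 at a fold above 2, against 6, and 0 in the METTL3-KD list under every alternative. The number of distinct molecules, not of reads, limits the control input, where 31 members had no molecule.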
